A study of Oryctolagus cuniculus with 8 samples.

Results

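The genes described here are 10 genes of cell cycle exit and quiescence, chosen by name: the cyclin-dependent kinase (CDK) inhibitor genes CDKN1A, CDKN1B, CDKN1C and CDKN2C, the pocket protein genes RB1 and RBL2, the antiproliferative genes TOB1, BTG2 and BTG3, and the thioredoxin-interacting protein gene TXNIP. The deposited table held 20922 gene entries, and 8 of the 10 genes had an entry under their name. CDKN1C and RB1 were not analysed here. The samples were side population (SP) cells and non-side-population (NSP) cells of the limbal epithelium of New Zealand white rabbits, 4 libraries of each, with no further treatment named. SP cells were sorted as those that pump out a Hoechst DNA dye and stay dim, a trait used to look for stem cells, and NSP cells were the remaining cells. The comparison asks which genes differ between dye-excluding limbal cells and the others. The sources used here name neither the animals' age nor whether each library had its own animal. The p-values therefore describe only the variation among these 8 libraries, which may be technical.

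A cell leaves the cycle when CDK activity falls below what is needed to inactivate the pocket proteins. Proteins of the Cip/Kip group (CDKN1A or p21, CDKN1B or p27) bind CDK2 complexes, INK4 proteins such as CDKN2C (p18) bind CDK4 and CDK6, and active pocket proteins such as RBL2 (p130) hold E2F target genes silent in resting cells. BTG and TOB proteins slow growth by recruiting the CCR4-NOT deadenylase to messenger RNAs, and TXNIP binds thioredoxin and lowers glucose uptake. In the limbus, slow-cycling cells of the basal layer are held to be the stem cells that renew the corneal epithelium.

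Each library held between 15553295 and 23529101 exon reads. Levels are given as CPM, the read count relative to library size, after TMM scaling. That scaling applies a factor to each library and assumes that most genes do not differ between libraries. The SP libraries carried RNA of several cell types. The summed level of 16 epithelial marker genes ran from 1198 to 8511 CPM in SP libraries and from 29640 to 54090 CPM in NSP libraries, and 15 of the 16 fell in SP. Summed endothelial markers ran from 1062 to 11350 CPM in SP and from 9.24 to 16.1 CPM in NSP, with 9 of 9 tested genes higher. T and NK cell markers ran from 1804 to 6904 CPM in SP and from 3.37 to 8.67 CPM in NSP, with 8 of 8 higher. Melanocyte markers ran from 2019 to 12650 CPM in SP and from 154 to 319 CPM in NSP, with 7 of 7 higher. Myeloid markers ran from 1200.0 to 2250.0 CPM in SP against 48.6 to 112 CPM in NSP (6 of 8 higher), B and plasma cell markers from 305 to 899 CPM against 25.1 to 51.5 CPM (5 of 6 higher), and stromal markers from 204 to 353 CPM against 44.4 to 60.6 CPM (6 of 8 higher, 1 lower). The defining markers with no read in any NSP library were CD8B, MS4A1, MZB1, POU2AF1, COL3A1, LUM and KERA, and no marker was at 0 in all SP libraries. These shifts move with every comparison below, and their part in each was not tested. In such bulk libraries, fewer cells of a type and less RNA per cell cannot be told apart.

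**Figure D1:**
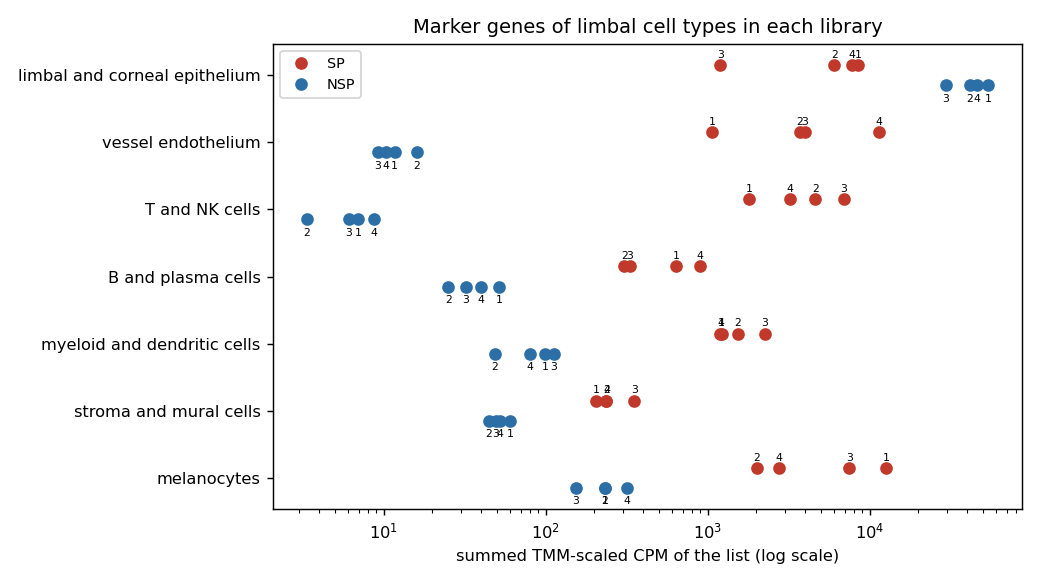
Summed TMM-scaled CPM (log axis) of marker genes of 7 cell types in each SP library (red) and NSP library (blue), with the replicate number at each point. SP replicate 3 held the least epithelial RNA (1198 CPM) and SP replicate 4 the most endothelial RNA (11350 CPM).

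Between SP and NSP cells, 4 of the 8 measured genes rose and 2 fell. TXNIP, CDKN1B, CDKN2C and BTG3 were higher in SP, CDKN1A and BTG2 were lower, and RBL2 and TOB1 did not pass the threshold (limma-voom, Benjamini-Hochberg adjusted p under 0.05 over 10012 genes). Values given as a ± b beside an adjusted p are the log2 fold change of SP over NSP with its SE. Over all tested genes, 30.5% passed, 15.4% higher and 15.1% lower. The counts of list genes given below are to be read beside these shares, under which calls in both directions are common. The libraries of the groups did not overlap for 6 of the 8 genes, against 32.8% of all tested genes. The calls were repeated under 15 alternatives: other scalings, filters and fits (limma-trend and quality weights), reads thinned to the smallest library, and each library left out in turn. The number of members higher was 2 without SP replicate 3 or without any 1 NSP library. It was 3 without SP replicate 1 or 2 and with upper-quartile scaling. The number lower was 1 without NSP replicate 2. All 8 genes stood above the low-count limit of 0.508 CPM in every library of both groups.

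**Figure D2:**
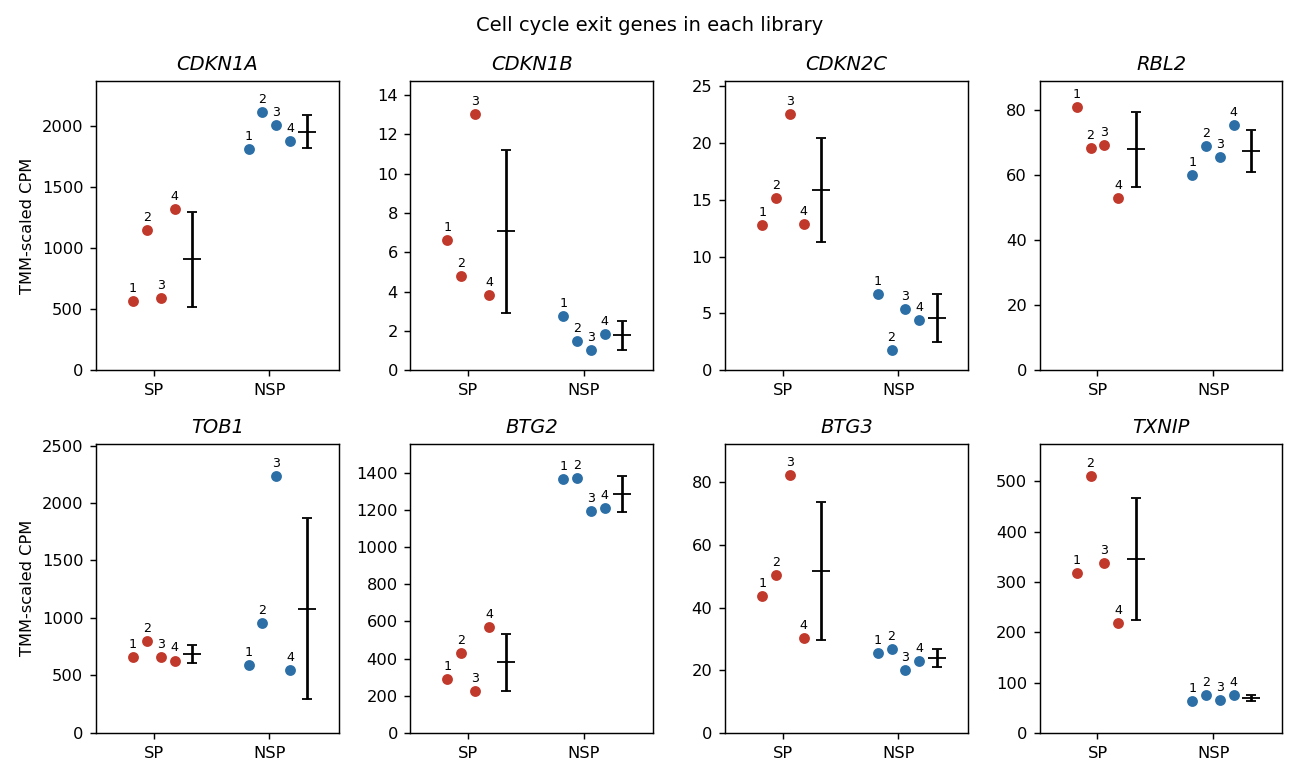
TMM-scaled CPM of the 8 measured genes in each SP (red) and NSP (blue) library, numbered by replicate, with the mean and SD in black (n = 4 each; axes start at 0 and differ between panels). SP and NSP libraries lie apart in 6 panels and overlap for RBL2 and TOB1.

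The CDK inhibitors moved in opposite directions. CDKN1A, a Cip/Kip inhibitor that stress signals induce, had 563, 1151, 594 and 1320.0 CPM in SP replicates 1 to 4 and 1812, 2112, 2006 and 1877 CPM in NSP replicates 1 to 4. All SP libraries lay under all NSP libraries, and SP replicates 1 and 3 were lower than replicates 2 and 4. The means were 907 ± 386 CPM in SP against 1952 ± 134 CPM in NSP (SD, n = 4 each). The fold change on the log2 scale was -1.20 ± 0.31 (SE; limma-voom adjusted p = 0.0148). Without NSP replicate 2 the call ended, at -1.05 with adjusted p = 0.0541, where the median of all genes was 0.11 in place of -0.0053.

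CDKN1B, the Cip/Kip inhibitor most tied to resting cells, had 6.63, 4.78, 13.03 and 3.82 CPM in SP replicates 1 to 4, against 2.77, 1.49, 1.03 and 1.87 CPM in NSP. SP replicate 3 stood above the other SP libraries, and the groups did not overlap. The log2 fold change was 1.93 ± 0.59 (limma-voom adjusted p = 0.0315), resting on 548 reads in SP and 146 in NSP. It ran from 1.56 to 2.17 when any 1 library was left out. The call ended without SP replicate 1 (1.92, adjusted p = 0.0509) or 3 (1.56, 0.0728), and without NSP replicate 1 (2.17, 0.0533), 2 (1.97, 0.0781), 3 (1.70, 0.0784) or 4 (1.97, 0.0780).

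CDKN2C had 12.8, 15.2, 22.5 and 12.8 CPM in SP replicates 1 to 4, against 6.70, 1.73, 5.42 and 4.39 CPM in NSP. SP replicate 3 was again the highest, and every SP library exceeded every NSP library. Its log2 fold change was 1.93 ± 0.46 (limma-voom adjusted p = 0.0104), and the call held without any single library (adjusted p up to 0.0315).

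Of 6 measured CDK inhibitor genes, which include these 3, 2 rose and 1 fell, with a median log2 fold change of 1.63 beside -0.0053 over all tested genes. The number higher was 1 without SP replicate 1 or 3 or NSP replicate 1, 2 or 4, and the number lower was 0 without NSP replicate 2. The INK4 gene CDKN2A, which also encodes ARF, had 7.08 ± 3.34 CPM in SP against 1.87 ± 1.45 CPM in NSP and missed the threshold (2.79 ± 0.99, limma-voom adjusted p = 0.0558). CDKN2B, an INK4 gene that TGF-beta induces, averaged 100.3 ± 81.8 CPM in SP cells and 54.1 ± 21.1 CPM in NSP cells (adjusted p = 0.445). CDKN3, a CDK-associated phosphatase, had 8.28 ± 1.83 CPM in SP cells and 3.77 ± 2.50 CPM in NSP cells (1.33 ± 0.49, adjusted p = 0.0628).

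RBL2, the pocket protein of resting cells, showed no detectable difference. It had 81.0, 68.4, 69.4 and 52.9 CPM in SP replicates 1 to 4, against 59.9, 69.1, 65.6 and 75.3 CPM in NSP. The groups overlapped, and the highest and the lowest of all libraries were both SP. The log2 fold change was 0.0067, with a 95% interval from -0.47 to 0.48 (limma-voom adjusted p = 0.986). Of 13 tested genes of pocket proteins, E2F factors and the DREAM complex, which silences cell cycle genes in resting cells, 2 rose and 3 fell (median log2 fold change 0.47). The number higher was 1 without SP replicate 1, 2 or 3 and 0 without NSP replicate 1 or 4, and the number lower was 0 without NSP replicate 2. E2F8 and E2F7, repressors of the E2F family, were lower. E2F8 had 3.40 ± 1.35 CPM in SP and 12.0 ± 4.40 CPM in NSP (-1.79 ± 0.48, limma-voom adjusted p = 0.0176), and E2F7 had 2.11 ± 2.42 CPM in SP cells and 10.6 ± 3.09 CPM in NSP (-3.47 ± 0.97, adjusted p = 0.0206). Both calls ended without NSP replicate 2 (adjusted p = 0.0641 and 0.0518). E2F7 was uneven in SP, with 5.60, 0.0488, 1.56 and 1.23 CPM in replicates 1 to 4. Its log2 fold change was -4.38 without SP replicate 1, -2.14 without SP replicate 2, -2.53 with limma-trend and -4.42 with quality weights. TFDP2, a dimer partner of E2F factors, fell (-0.84 ± 0.24, adjusted p = 0.0240), a call lost without SP replicate 3 or NSP replicate 2 or 3 (adjusted p up to 0.0891). The activator E2F2 rose (2.34 ± 0.62, adjusted p = 0.0171; up to 0.0606 without NSP replicate 1 or 4), as did LIN54, the DNA-binding subunit of DREAM (0.72 ± 0.22, adjusted p = 0.0284; up to 0.105 without SP replicate 1, 2 or 3 or NSP replicate 1 or 4).

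**Figure D3:**
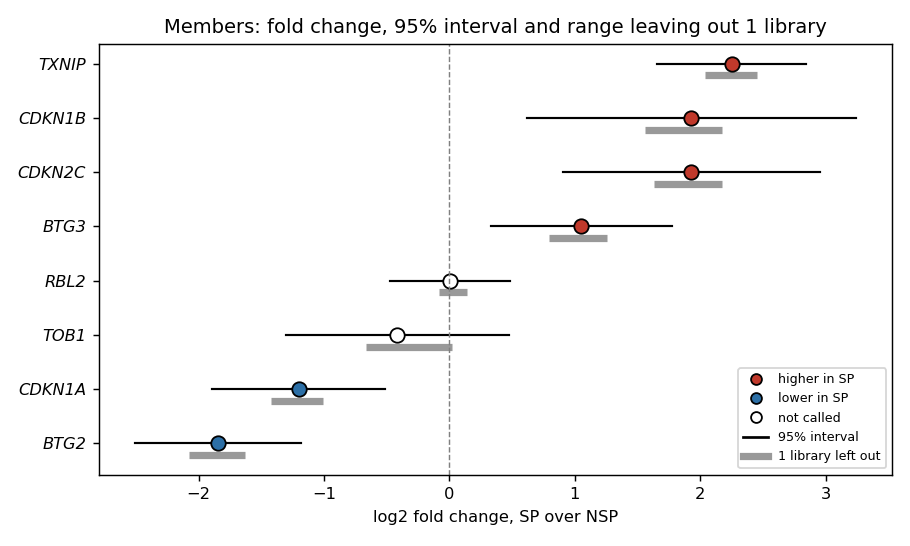
log2 fold change of SP over NSP for the 8 genes from limma-voom (circles; red higher, blue lower, white not called), with 95% intervals (black) and the range when any 1 library is left out (grey). TXNIP lies highest at 2.25 and BTG2 lowest at -1.85, and the intervals of RBL2 and TOB1 span 0.

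The BTG and TOB genes also divided. BTG2, an antiproliferative gene that growth factors induce, had 289, 429, 225 and 572 CPM in SP replicates 1 to 4, against 1368, 1372, 1193 and 1211 CPM in NSP. Every SP library lay far under every NSP library, and the NSP libraries differed little among themselves. The means were 379 ± 154 CPM in SP against 1286 ± 97.4 CPM in NSP (SD, n = 4 each). The log2 fold change was -1.85 ± 0.30 (limma-voom adjusted p = 0.00144). The call held in all 15 alternatives (adjusted p up to 0.00655).

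BTG3, a relative of BTG2 that also binds E2F1, had 43.8, 50.3, 82.4 and 30.2 CPM in SP replicates 1 to 4, against 25.4, 26.6, 20.1 and 23.0 CPM in NSP. The groups did not overlap, although SP replicate 4 came near the NSP libraries. BTG3 had a fold change of 1.05 ± 0.33 on the log2 scale (limma-voom adjusted p = 0.0322). The call ended with upper-quartile scaling (0.98, adjusted p = 0.0512). It also ended without SP replicate 2 (1.04, adjusted p = 0.0658) or 3 (0.79, 0.0747), and without NSP replicate 1 (1.09, 0.0657), 2 (1.22, 0.0574), 3 (0.98, 0.0768) or 4 (1.04, 0.0832).

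TOB1, which recruits the deadenylase to messenger RNAs through poly(A)-binding protein, had 659, 798, 657 and 630 CPM in SP replicates 1 to 4, against 587, 959, 2232 and 545 CPM in NSP. The SP libraries were close to each other, and NSP replicate 3 stood above all others. For TOB1 the log2 fold change was -0.42, with a 95% interval from -1.31 to 0.47 (limma-voom adjusted p = 0.469). It was 0.02 without NSP replicate 3. The family member BTG1, which is high in resting lymphocytes among others, had 802 ± 69.4 CPM in SP against 544 ± 122 CPM in NSP and missed the threshold (0.59 ± 0.24, adjusted p = 0.0830), though its groups did not overlap. Of 4 tested BTG and TOB genes, BTG3 was the 1 that rose and BTG2 the 1 that fell.

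The deadenylase complex that BTG and TOB proteins recruit, with its poly(A) partners, had 12 tested genes, of which 3 rose and 1 fell (median log2 fold change 0.23). The number higher was 5 without SP replicate 4, and 1 without SP replicate 2 or 3 or NSP replicate 1, 2 or 4. CNOT8, a catalytic subunit that binds BTG and TOB proteins directly, had 71.7 ± 18.3 CPM in SP and 33.3 ± 5.71 CPM in NSP (1.10 ± 0.26, limma-voom adjusted p = 0.00926) and kept its call without any single library. CNOT7, the other such subunit, had 44.4 ± 38.3 CPM in SP cells and 21.7 ± 15.3 CPM in NSP cells (0.41, adjusted p = 0.809). The CCR4-NOT subunit gene CNOT2 rose (1.09 ± 0.33, adjusted p = 0.0294), as did the poly(A)-binding protein gene PABPC1 (0.70 ± 0.24, adjusted p = 0.0443). CNOT1, a further subunit gene, was not called (-0.34, adjusted p = 0.31). TNKS1BP1, a further CCR4-NOT partner, fell, with 116 ± 57.4 CPM in SP cells and 213 ± 42.9 CPM in NSP cells (1.996-fold lower, adjusted p = 0.0474). CNOT2 lost its call without SP replicate 1, 2 or 3 or NSP replicate 1, 2 or 4 (adjusted p up to 0.0787), and TNKS1BP1 without the same libraries, without the low-count filter and with thinned reads (up to 0.139). PABPC1 lost it without SP replicate 2 or 3 or NSP replicate 1, 2 or 4, with upper-quartile scaling and with limma-trend (up to 0.119).

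TXNIP, the inhibitor of thioredoxin, rose most of the measured genes. It had 317, 509.5, 337 and 218 CPM in SP replicates 1 to 4, against 63.7, 74.5, 64.7 and 74.8 CPM in NSP. The lowest SP library was well above the highest NSP library, and the NSP libraries were nearly alike. The means were 346 ± 121 CPM in SP against 69.4 ± 6.04 CPM in NSP (SD, n = 4 each). The log2 fold change was 2.25 ± 0.27 (limma-voom adjusted p = 0.000332). That is 4.76-fold, and the log2 fold change ran from 2.04 to 2.45 with every call kept over 15 alternatives.

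Genes of the thioredoxin system and of glucose uptake, with which TXNIP acts, moved both ways. The list counted here held these genes and also the arrestin gene ARRDC3, the ubiquitin ligase gene ITCH and the transcription factor genes MLX, USF1 and NFE2L2. Of its 14 tested genes, TXNIP included, 3 rose and 5 fell (median log2 fold change -0.57). TXN, the thioredoxin that TXNIP binds, had 286 ± 38.5 CPM in SP and 1526 ± 57.8 CPM in NSP (-2.43 ± 0.20, limma-voom adjusted p = 8.34e-05). The peroxiredoxin genes PRDX1 and PRDX3, whose proteins thioredoxins reduce, fell by 1.15 and 1.16 on the log2 scale (adjusted p = 0.00212 and 0.00599). TXNRD3, a thioredoxin reductase, had 2.48 ± 2.17 CPM in SP against 21.7 ± 4.10 CPM in NSP (-4.69 ± 1.14, adjusted p = 0.0112). SP replicate 3 held no TXNRD3 read, and the log2 fold change was -2.87 without it, -5.41 without SP replicate 2 or 4 and -3.33 with limma-trend. The glucose transporter gene SLC2A1 had 370.3 ± 194 CPM in SP against 2004 ± 541 CPM in NSP (-2.52 ± 0.37, adjusted p = 0.000811), while SLC2A3, a transporter of neurons and blood cells among others, had 2676 ± 1500.0 CPM in SP against 509 ± 174 CPM in NSP (2.31 ± 0.42, adjusted p = 0.00253). These 6 calls held in every alternative. ARRDC3, an arrestin of the same family as TXNIP, rose (1.17 ± 0.40, adjusted p = 0.0459), but lost its call without SP replicate 1, 2 or 3 or NSP replicate 1, 3 or 4, without the low-count filter and with upper-quartile scaling (adjusted p up to 0.123).

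Per kilobase of exon, the order of the members' levels differed little between groups. In SP cells TOB1 led at 571 ± 63.1 CPM per kb, followed by CDKN1A (441 ± 188), BTG2 (147 ± 59.9), TXNIP (146 ± 51.0), BTG3 (43.2 ± 18.5), RBL2 (14.1 ± 2.38), CDKN2C (7.70 ± 2.23) and CDKN1B (2.97 ± 1.74). TOB1 and CDKN1A overlapped between SP libraries, as did BTG2 and TXNIP. In NSP cells CDKN1A led at 950 ± 65.3 CPM per kb, followed by TOB1 (899 ± 657), BTG2 (499 ± 37.8), TXNIP (29.2 ± 2.54), BTG3 (19.9 ± 2.41), RBL2 (14.0 ± 1.33), CDKN2C (2.22 ± 1.03) and CDKN1B (0.752 ± 0.31). The range of TOB1 covered those of CDKN1A and BTG2 in NSP, and CDKN2C and CDKN1B overlapped. CDKN1A made up 97.2% ± 1.88 of the summed per-kilobase level of the 3 measured CDK inhibitor members in SP and 99.7% ± 0.145 in NSP. Among BTG2, BTG3 and TOB1, BTG2 held 19.1% ± 7.0 in SP and 40.0% ± 14.5 in NSP, and BTG3 held 5.78% ± 2.81 in SP and 1.61% ± 0.623 in NSP.

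Within the SP group the members did not share a highest library. SP replicate 3 was highest for CDKN1B, CDKN2C and BTG3 and lowest for BTG2. SP replicate 4 was highest for CDKN1A and BTG2 and lowest for CDKN1B, RBL2, TOB1, BTG3 and TXNIP. The ratio of the highest to the lowest library was larger in SP for 6 of the 8 genes: CDKN1A (2.35 in SP, 1.17 in NSP), CDKN1B (3.41, 2.69), RBL2 (1.53, 1.26), BTG2 (2.54, 1.15), BTG3 (2.73, 1.32) and TXNIP (2.33, 1.17). It was smaller in SP for CDKN2C (1.76 in SP, 3.86 in NSP) and TOB1 (1.27, 4.10). These ratios were not tested, and the share of all tested genes with a larger ratio in SP was not computed. SP replicates 3 and 4 also differed in their marker sums, with 1198 and 7800.0 CPM of epithelial, 3983 and 11350 CPM of endothelial and 6904 and 3225 CPM of T and NK cell markers. The part of these sums in the spread was not tested.

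A list of cyclins, cell cycle kinases and phosphatases, MYC family genes with MAX, and genes of CDK inhibitor degradation had 20 tested genes. Of these, 4 rose and 3 fell, with a median log2 fold change of 0.35. The list is not limited to the G1 phase, as it includes WEE1, CCNA2 and CDC25C. DTL, the receptor through which a ubiquitin ligase marks CDKN1A for degradation, had 27.1, 40.6, 103 and 95.9 CPM in SP replicates 1 to 4, against 0.526, 6.41, 1.496 and 1.71 CPM in NSP. All SP libraries were above all NSP libraries (5.02 ± 0.90, limma-voom adjusted p = 0.00241; 5.79 without NSP replicate 2). SKP2, the receptor that marks CDKN1B, had 26.8 ± 9.50 CPM in SP and 9.02 ± 3.47 CPM in NSP (3.03-fold higher, adjusted p = 0.0124), while its cofactor CKS1B had 29.03 ± 10.3 CPM in SP against 61.9 ± 6.62 CPM in NSP (-1.18 ± 0.29, adjusted p = 0.0121). CDC25A, a phosphatase that activates CDK2, rose (1.52 ± 0.37, adjusted p = 0.0119), and MYCL, a MYC relative, fell (-2.36 ± 0.40, adjusted p = 0.00186). These 5 calls held in every alternative. The cyclin gene CCNE2 rose (2.31 ± 0.76, adjusted p = 0.0418), but its libraries overlapped between groups. Such overlap also held for the called genes CNOT2, TNKS1BP1 and ARRDC3 above and TPX2 and NR4A3 below. CCNE2 lost its call without SP replicate 1, 2 or 3 or NSP replicate 1, 2 or 4, with upper-quartile scaling and with thinned reads (adjusted p up to 0.124). The kinase gene CDK6 fell (-0.80 ± 0.22, adjusted p = 0.0188), a call lost without SP replicate 3 or NSP replicate 1, 2 or 4 (up to 0.0914).

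**Figure D4:**
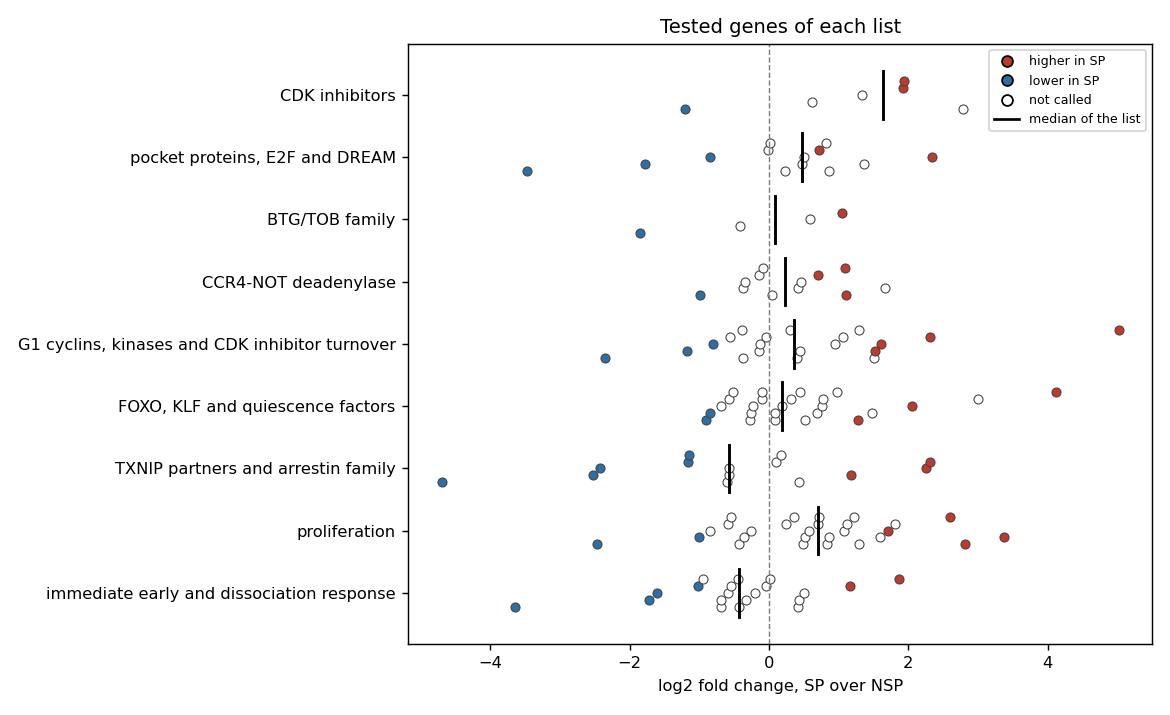
log2 fold change of SP over NSP for each tested gene (circles) of 9 gene lists, red where higher, blue where lower and white where not called, with the median of each list as a black bar. Medians run from -0.57 for TXNIP partners to 1.63 for CDK inhibitors, and every list has genes called in both directions. Over all tested genes, 15.4% were called higher and 15.1% lower.

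Among 25 tested FOXO, KLF and other quiescence factors, 3 rose and 2 fell (median log2 fold change 0.19). PDK4, a FOXO target that shuts pyruvate out of oxidation, had 237, 481, 1208 and 2114 CPM in SP replicates 1 to 4, against 43.5, 67.2, 66.5 and 17.0 CPM in NSP. Every SP library was above every NSP library, with a wide spread inside SP (4.11 ± 0.67, limma-voom adjusted p = 0.00150). HBP1, a repressor of cell cycle genes, had 598 ± 84.8 CPM in SP against 248 ± 42.4 CPM in NSP (1.27 ± 0.22, adjusted p = 0.00198). KLF9, a factor that glucocorticoids induce, had 208 ± 127 CPM in SP against 47.1 ± 17.5 CPM in NSP (2.05 ± 0.44, adjusted p = 0.00583). YPEL5 fell, with 378 ± 34.4 CPM in SP cells and 707 ± 69.3 CPM in NSP cells (-0.90 ± 0.20, adjusted p = 0.00678), and these 4 calls held in every alternative. TCF7L2, an effector of Wnt signalling, fell (-0.85 ± 0.27, adjusted p = 0.0346), but lost its call when any 1 library other than SP replicate 4 was left out (up to 0.0975), which leaves 1 gene lower in the list. FOXO3 had 248 ± 93.0 CPM in SP cells and 196 ± 55.7 CPM in NSP cells (0.31, adjusted p = 0.504).

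Of 27 tested proliferation genes, 4 rose and 2 fell, with a median log2 fold change of 0.70. These counts depended on single libraries: 9 genes were higher without SP replicate 4, 0 without NSP replicate 1, 1 without SP replicate 3, and 2 without SP replicate 1 or NSP replicate 2, 3 or 4. The number lower was 1 without SP replicate 3 or any 1 NSP library. The mitotic genes CENPF (2.59 ± 0.70), TPX2 (1.71 ± 0.46), KIF11 (2.81 ± 0.86) and CENPE (3.38 ± 1.09) rose (limma-voom adjusted p = 0.0186, 0.0188, 0.0310 and 0.0388). In NSP they averaged 1.06, 8.85, 1.28 and 0.596 CPM. CENPF, KIF11 and CENPE were near the floor there, with lowest NSP libraries at 0.258, 0.103 and 0.202 CPM, under the low-count limit of 0.508 CPM. Their fold changes therefore rest on few NSP reads (86, 105 and 48 over all NSP libraries). Each of the 4 calls ended without some single library. CENPF lost it without NSP replicate 1 (adjusted p = 0.0526), TPX2 without SP replicate 3 or NSP replicate 1 or 2 (up to 0.0583), KIF11 without SP replicate 1 or 3 or NSP replicate 1, 3 or 4 (up to 0.0710), and CENPE when any 1 library other than SP replicate 4 was left out (up to 0.107). With limma-trend the log2 fold changes of CENPF, KIF11 and CENPE were 1.98, 2.07 and 2.47. KIF11 was also at 2.07 with quality weights and at 1.90 without NSP replicate 3, and CENPE at 4.00 with quality weights and 3.97 without SP replicate 4. CDC20, the activator of the anaphase-promoting complex, fell, with 22.3 ± 7.73 CPM in SP cells and 123 ± 48.4 CPM in NSP cells (-2.48 ± 0.35, adjusted p = 0.000667). The replication licensing gene CDC6 fell (-1.01 ± 0.30, adjusted p = 0.0268; up to 0.0843 with SP replicate 3 or any NSP library left out). PCNA, the replication clamp, had 197 ± 46.6 CPM in SP cells and 139 ± 24.1 CPM in NSP cells (0.49, adjusted p = 0.157).

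BTG2 is itself an immediate early gene, a class that also responds to tissue dissociation. Of 20 tested immediate early and dissociation response genes, 2 rose and 4 fell (median log2 fold change -0.44). Without SP replicate 4, 8 were lower and 0 higher. The number higher was also 0 without SP replicate 3 or NSP replicate 3 or 4, and 1 without SP replicate 1 or NSP replicate 1 or 2. EGR1, a zinc finger factor of that class, had 783 ± 492 CPM in SP and 2327 ± 490 CPM in NSP (-1.72 ± 0.38, limma-voom adjusted p = 0.00708). The AP-1 gene FOSL1 (-3.65 ± 0.36, adjusted p = 0.000163), the RNA decay factor gene ZFP36L1 (-1.61 ± 0.23, adjusted p = 0.000846) and the chaperone gene HSPA8 (-1.01 ± 0.24, adjusted p = 0.00932) fell as well, HSPA8 losing its call with limma-trend (0.0873). The nuclear receptor gene NR4A3 rose (1.86 ± 0.57, adjusted p = 0.0313), as did the mTOR inhibitor gene DDIT4 (1.17 ± 0.37, adjusted p = 0.0337). NR4A3 lost its call without SP replicate 1, 3 or 4 or NSP replicate 2, 3 or 4 and with quality weights (up to 0.0819; log2 fold change 2.48 without NSP replicate 1), and DDIT4 without SP replicate 3 or 4 or NSP replicate 1, 3 or 4 (up to 0.0893). FOS had 1841 ± 789.7 CPM in SP cells and 1320.0 ± 390.3 CPM in NSP cells (0.44, adjusted p = 0.374).

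In the authors' deposited table, 5 of the 8 measured genes passed a corrected p of 0.05 in their EDGE test. The share of all entries that passed that test was not computed here, so this count says nothing particular about these genes. Both tests rest on the same reads. Its fold changes run NSP over SP, with a minus sign for genes lower in NSP. The authors' deposited table gives -4.98 for TXNIP (corrected p = 5.83e-08), -3.94 for CDKN1B (0.0301), -3.47 for CDKN2C (0.0159), 3.39 for BTG2 (0.000107) and 2.15 for CDKN1A (0.0349). In the authors' deposited table BTG3 (-2.17, corrected p = 0.0537), TOB1 (1.58, 0.506) and RBL2 (-1.01, 1) did not pass. The directions were those given above, and BTG3 was on the other side of the threshold.

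The genes most like each member in their profile over the 8 libraries were found among 8589 named tested genes, by the mean absolute difference of gene-centred log2(CPM + 0.5), which is a description only. CDKN1A lay nearest to ITGA2B (mean absolute difference 0.0987) and MKKS (0.119), and BTG2 to SLC38A7 (0.152) and SGMS1 (0.158). CDKN1B lay nearest to SKP2 (0.156) and COQ10A (0.178), CDKN2C to USP3 (0.230) and CRLF3 (0.270), and BTG3 to CEP85L (0.114) and CBLB (0.144). At 1.03 to 2.77 CPM in NSP libraries, CDKN1B lay near the offset of 0.5, which narrows its difference between groups in this measure. RBL2 lay nearest to MAN1A2 (0.0969) and MRPL39 (0.105), and TOB1 to ZC3H11A (0.111) and CDC42BPA (0.138). For TXNIP these were SCML4 (0.163) and MATN1 (0.191), which had 1.59 and 2.27 CPM in SP and no read in NSP, so that the offset of 0.5 sets their NSP values. Among the members themselves, CDKN1A and BTG2 were closest (0.322), followed by CDKN1B and BTG3 (0.379), and BTG2 and TXNIP were farthest apart (2.05).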

How the data were processed

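Per the labels, total RNA of the 8 samples was read on an Ion Proton sequencer. The authors deposited 1 fixed-width table (163 fields, each 8 characters wide, split over 6 blocks), which was read by character position. Its whole-number exon reads per library, its exon lengths and, per the file headers, the authors' EDGE test were used, and 144 other per-library fields were not. The aligner, genome build and gene models used were not given in the sources used here. Headers name the group only, so replicates are numbered in column order. Gene names of under 8 characters are complete (10603 entries); a further 313 matched 1 RefSeq symbol (assembly mOryCun1.1, names only). The other 10006 entries (10.1% of reads) stayed in totals and tests.

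TMM factors, with trims of 30% on ratios and 5% on intensity, scaled the reads. A gene was tested if 4 or more libraries reached 0.508 CPM, which is 10 reads in a library of median size, and its reads summed to at least 15, with limma-voom (limma 3.58.1, R 4.3.3; offset 0.5; group only; two-sided). A count model such as edgeR was not used, although the same reads could enter one. The fields of the table touch, so the reads could not be checked as separate columns. Their group means lay within 0.05 reads of the deposited group means. The procedure was run on simulated data in which 200 genes were changed, far fewer than the 3050 called here. That run cannot show how the scaling and test behave when so many genes differ. Figures used Python 3.11.15 and matplotlib 3.10.9. Members and lists were chosen with earlier results of these data known, and 1 list is not reported here. Named list genes are, by rule, the 3 smallest p per list and direction; counts of 5 or fewer are named in full, and uncalled genes named beside them were picked for their role or after their values were seen.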

Additional observations from a re-analysis of the deposited data

Results flagged for a closer look

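Among 94 groups of 4 libraries examined (members and named list genes, SP and NSP each), 4 held a library far from the other 3 by Dixon's test, and chance alone marks about 1 group in 20. None was a measured member of the cell cycle exit genes. FOSL1 had 83.9 CPM in SP replicate 4, with 31.1 CPM in the next and 20.8 CPM in the lowest SP library. It had 505 CPM in NSP replicate 3, with 408 CPM in the next and 398 CPM in the lowest NSP library. PLK2, a polo-like kinase gene, had 6292 CPM in NSP replicate 3, against 2126 CPM in the next highest and 1480.0 CPM in the lowest NSP library. YPEL5 had 810.2 CPM in NSP replicate 3, with 679.7 CPM in the next and 666 CPM in the lowest. The flagged NSP library was thus replicate 3 each time, which was also the highest for TOB1 (2232 CPM). The groups share libraries, so the flags cannot be counted as independent.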

How the results depend on the processing

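No called result reversed; TOB1, which was not called, was at 0.02 in place of -0.42 without NSP replicate 3. Among the 8 measured members over 15 alternatives (other scalings, filters and fits, thinning to 15553295 reads, and each library left out), TXNIP, BTG2 and CDKN2C kept their calls throughout, CDKN1A lost 1, CDKN1B 6 and BTG3 7; RBL2 and TOB1 gained none. With 1 library left out, 2 to 4 members were called higher and 1 to 2 lower, and over all genes 953 to 1651 were called higher and 957 to 1759 lower; the lowest counts came without SP replicate 3 (953 higher) and NSP replicate 2 (957 lower). Of 44 called list genes that are not members, 21 kept their call in every alternative. List counts moved too. With 1 library left out, 0 to 9 proliferation genes were called higher (4 with all libraries), 4 to 8 immediate early genes lower (4) and 1 to 5 CCR4-NOT genes higher (3), each highest without SP replicate 4. With quality weights 4 CDK inhibitors, 8 proliferation genes and 6 quiescence factors rose, while 8 immediate early genes fell and 1 rose; with limma-trend 5 quiescence factors rose. The cause was not tested. No paired analysis was possible because the table's columns carry the group but no replicate number. edgeR and DESeq2 were not run. CDKN1B rested on the fewest reads of the members, 53 to 268 in SP libraries and 20 to 58 in NSP libraries, which limits its precision.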

Other observations

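GAS1, a growth arrest gene that was not tested because too few libraries reached the low-count limit, held 2 reads over all SP libraries and 191 over all NSP libraries. Its NSP reads were uneven, with 3.49, 5.16, 0.413 and 0.151 CPM in NSP replicates 1 to 4. This gene was singled out after its values were seen. CNOT6L, a catalytic deadenylase subunit, spread widely in SP, with 67.5, 44.2, 93.9 and 11.03 CPM in SP replicates 1 to 4, against 14.9, 14.98, 15.8 and 10.5 CPM in NSP (1.66 ± 0.62, limma-voom adjusted p = 0.0659). CDKN2B was also uneven in SP, from 28.4 CPM in replicate 3 to 214 CPM in replicate 2, and ran from 26.6 to 71.1 CPM in NSP.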
